A study of Mus musculus with 6 samples.

Results

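The matrix metalloproteinases (MMPs) and their tissue inhibitors (TIMPs) were followed in bone marrow-derived macrophages (BMDMs) 1 h after lipopolysaccharide (LPS), the outer membrane glycolipid of Gram-negative bacteria. Members were chosen by gene symbol, with earlier results of these data known. They are 7 MMP genes (Mmp8, Mmp9, Mmp12, Mmp13, Mmp14, Mmp19 and Mmp27) and 2 inhibitor genes (Timp1 and Timp2). The members make up 9 of the 27 MMP and TIMP genes and 9 of the 55335 genes in the count table. All 9 had enough reads to be tested, as had 7 of the other 18 genes of the family. Because of how the members were chosen, these shares are not a comparison. The BMDMs were of C57BL/6 genotype, grown from femur and tibia marrow in medium conditioned by L929 cells, a fibroblast line. A group of 3 libraries came from cells given PBS, the vehicle control, and a group of 3 from cells given LPS, each collected at 1 h, with replicates 1, 2 and 3 labelled as batches in both groups. No group carried an engineered allele. Mice in the study were male and 7 to 10 weeks of age. The sources used here do not give the LPS dose for these libraries or whether the replicates came from separate mice, so p-values measure only the spread between these libraries, which may be technical.

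MMPs are zinc-dependent proteases that cut extracellular matrix and also shed or process cytokines, chemokines and receptors. Most are secreted as inactive proenzymes whose propeptide must be removed, while the membrane-type enzymes such as Mmp14 are cleaved inside the cell by furin-like convertases and act at the surface. TIMPs bind the active site and block it, and Timp2 also takes part with Mmp14 in activating pro-Mmp2. Macrophages are known as a source of Mmp12, named macrophage elastase, and several secreted MMP genes are textbook targets of AP-1, the Fos and Jun transcription factor family.

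At 1 h, 3 of the 9 genes rose past an adjusted p of 0.05 and a log2 fold change of 1 in edgeR's quasi-likelihood test: the collagenase gene Mmp13, the membrane-type MMP gene Mmp14 and the inhibitor gene Timp1. None of the 9 fell past these criteria. Over all 15687 genes tested, 10.5% rose and 10.4% fell past the same criteria. With the adjusted p alone, 5 members were higher and 4 were lower in LPS, against 32.9% higher and 34.9% lower over all genes. The median log2 fold change was 0.15 over the members and -0.01 over all genes. The 6 members other than Mmp13, Mmp14 and Timp1 had log2 fold changes between -0.26 and 0.32.

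Library totals ran from 37787611 to 41516330 counts, and 3 counts, taken as the floor, corresponded to 0.0630 to 0.0919 normalized CPM (the count relative to the library total after scaling by edgeR's TMM factor). The TMM factors were 1.15 in all 3 PBS libraries and 0.864 to 0.872 in the LPS libraries. Scaling by library size alone moved the median log2 fold change of all genes from -0.01 to -0.42 and the share of higher genes among those called from 50.4% to 29.0%, and upper quartile scaling gave a share of 42.6%. Small differences are therefore given relative to this scaling. All 8 genes of the macrophage marker list were tested, led by Lyz2, lysozyme, at 23272 CPM in PBS and 24224 CPM in LPS, and only Cd14, a co-receptor for LPS, rose past both criteria (log2 fold change 3.19). By the adjusted p alone, 6 of the 8 were higher, Cd14 included, against 32.9% of all genes. Only 1 was lower, Fcgr1, an Fc receptor gene (log2 fold change -0.48), against 34.9% of all genes. With library size alone 1 was higher and 6 were lower. The list's summed level without Cd14 was 29548 to 30823 CPM in PBS and 32289 to 32638 CPM in LPS, while with library size alone it was 33985 to 35351 and 27889 to 28443, so its direction rests on the scaling. In bulk RNA, fewer cells of a type and less RNA per cell cannot be told apart.

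The upstream sequences of the genes on chromosome 9 are shown because 4 members, Mmp13, Mmp12, Mmp8 and Mmp27, lie there in a cluster of 10 MMP genes. Of these 4 members, only Mmp13 rose past both criteria, and of the other cluster genes Mmp10 did. RefSeq promoters on GRCm38.p6 matched 7 of the 9 members; Mmp9 and Mmp19 had no entry. The bases below are the 100 nearest the annotated start, written 5′ to 3′, with capitals marking an AP-1 motif (TGANTCA) or a TATA box (TATAAA). They lie on the plus strand at chr9:7272414-7272513 (Mmp13), chr9:7347274-7347373 (the later of the 2 RefSeq starts of Mmp12), chr9:7558329-7558428 (Mmp8), chr9:7571296-7571395 (Mmp27), chr9:7502242-7502341 (Mmp10) and chr9:7445722-7445821 (Mmp3). Mmp10 and Mmp3, the stromelysin genes, are neighbours in the cluster and not among the 9.
Mmp13: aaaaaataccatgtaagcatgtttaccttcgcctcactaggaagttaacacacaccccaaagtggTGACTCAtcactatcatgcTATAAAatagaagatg
Mmp12: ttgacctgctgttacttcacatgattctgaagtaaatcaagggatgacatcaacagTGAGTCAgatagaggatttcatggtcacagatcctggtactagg
Mmp8: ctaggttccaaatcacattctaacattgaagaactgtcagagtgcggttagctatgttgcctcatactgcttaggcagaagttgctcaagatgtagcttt
Mmp27: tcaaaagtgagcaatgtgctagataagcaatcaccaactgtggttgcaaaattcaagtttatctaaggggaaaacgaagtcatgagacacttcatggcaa
Mmp10: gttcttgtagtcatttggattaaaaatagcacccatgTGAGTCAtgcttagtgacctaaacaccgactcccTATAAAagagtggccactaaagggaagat
Mmp3: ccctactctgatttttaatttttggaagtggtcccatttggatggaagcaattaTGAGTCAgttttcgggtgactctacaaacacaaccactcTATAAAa

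Motifs were searched on both strands of the 250 bases before each start. The AP-1 motif of Mmp13 lay 35 to 29 bases and its TATA box 16 to 11 bases upstream of the start. In Mmp12, the earlier start, 16 bases from the GENCODE M21 gene start, had no AP-1 motif. The later one, 2993 bases inside the gene, had a motif 44 to 38 bases upstream. No AP-1 motif or TATA box was found for Mmp8 or Mmp27. Of the 7 members with a RefSeq entry, 2 held the AP-1 motif (Mmp13 and Mmp12) and 1 held TATAAA (Mmp13). Counted over the cluster, non-members included, the AP-1 motif was present in 8 of the 10 genes, 7 of which also held TATAAA. It was present in 0 of the 12 MMP and TIMP genes outside the cluster with a RefSeq entry. The cluster genes are neighbours of 1 family, so they are not independent observations. A gene with several starts counted if any of its windows held the motif, so Mmp12 counted through its later start. The share that follows is per window. Of all 32851 promoter windows of this length, 6.75% held the AP-1 motif and 12.37% TATAAA. A match is a run of letters and no measurement of binding. Mmp10 and Mmp3 carried the same pair of motifs, and their counts are given below. The part of these motifs in any change was not tested.

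The promoters of the other 2 members that rose, Mmp14 at chr14:54431498-54431597 and Timp1 at chrX:20870066-20870165, both on the plus strand, are shown for comparison and held neither motif in 250 bases.
Mmp14: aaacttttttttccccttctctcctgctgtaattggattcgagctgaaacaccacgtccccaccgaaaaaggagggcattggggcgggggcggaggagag
Timp1: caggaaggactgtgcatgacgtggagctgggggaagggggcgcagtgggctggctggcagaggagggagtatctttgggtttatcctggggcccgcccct

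The ETS motif AGGAAG was found in 5 of the 7 members with an entry (Mmp8, Mmp12, Mmp13, Mmp14 and Timp1), against 29.48% of all promoter windows. The cyclic AMP response element TGACGTCA, found in 1.55% of windows, and the NF-kB motif, found in 3.9%, were each present in 0 of the 7.

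Mmp13 encodes collagenase-3, which cuts fibrillar collagen. The gene (ENSMUSG00000050578.10) spans chr9:7272514-7283331 on the plus strand of GRCm38 in GENCODE M21. Its counts were 251, 227 and 285 in PBS and 4378, 4054 and 4778 in LPS. All 3 LPS libraries lay far above all 3 PBS libraries. Normalized CPM went from 5.49 ± 0.607 to 132 ± 8.16 (SD, n = 3 libraries per group, here and below), a 24.0-fold rise. The log2 fold change was 4.58 with a standard error of 0.06 and a 95% interval of 4.45 to 4.72 (adjusted p = 2.0e-20 in edgeR's quasi-likelihood test). It ranked 233rd of the 15687 genes from the highest change. Within the 3 batches, the log2 difference ran from 4.51 to 4.63.

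Timp1 encodes a secreted inhibitor that is known to be inducible in many cells. It lies on the X chromosome (ENSMUSG00000001131.11, chrX:20870166-20874735, plus strand). Counts were 59, 64 and 46 in PBS and 389, 371 and 331 in LPS, with no overlap between the groups. The level rose from 1.22 ± 0.211 to 10.9 ± 1.02 CPM, an 8.93-fold change. Its log2 fold change was 3.16 with a standard error of 0.12 (95% interval 2.90 to 3.42, adjusted p = 1.3e-13 in edgeR's quasi-likelihood test). Timp1 lies wholly within the span of Syn1, a neuronal vesicle protein gene on the opposite strand, with 0 exonic bases in common. Syn1 had 336 to 412 counts in every library.

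Mmp14 encodes membrane type 1 MMP, a collagenase of the cell surface and an activator of pro-Mmp2. The gene (ENSMUSG00000000957.11) occupies chr14:54431612-54445364 on the plus strand. It had 203, 211 and 181 counts in PBS and 855, 853 and 807 in LPS. Again the groups stood apart, and Mmp14 was the member with the smallest relative spread among the 3 that rose in LPS. The level went from 4.29 ± 0.374 to 25.1 ± 1.25 CPM, a 5.86-fold rise, with a log2 fold change of 2.55 ± 0.08 (SE, adjusted p = 1.9e-15 in edgeR's quasi-likelihood test). The 3 batches gave log2 differences of 2.48 to 2.60 for Mmp14 and 3.00 to 3.29 for Timp1.

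**Figure D1:**
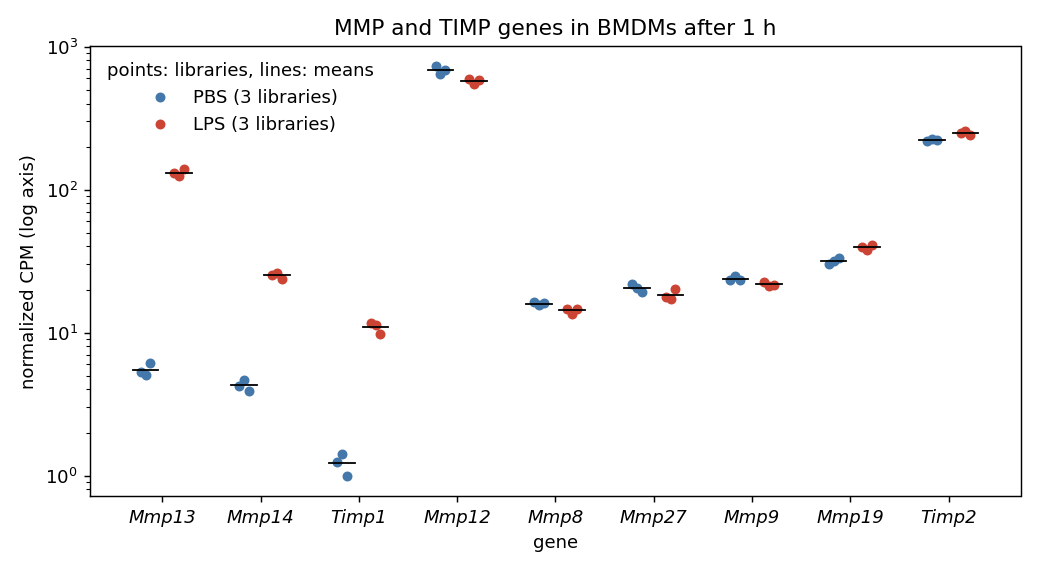
Normalized CPM (log axis) of the 9 genes in each library, with points for libraries and black lines for group means, PBS in blue and LPS in red. Mmp13, Mmp14 and Timp1 stand clear of their PBS levels, while Mmp12 at 687 and 573 CPM and Timp2 at 224 and 249 CPM remain the highest.

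Mmp12, the elastase gene, was the most abundant member by counts in every library. The gene (ENSMUSG00000049723.14, chr9:7344381-7369499, plus strand) had 34618, 29118 and 31808 counts in PBS and 19907, 17820 and 19781 in LPS. In CPM the levels were 687 ± 41.3 and 573 ± 24.5, a level 1.20-fold lower in LPS, and the lowest PBS library at 645 CPM lay above the highest LPS library at 593 CPM. The log2 fold change was -0.26 with a standard error of 0.04 (95% interval -0.35 to -0.17, adjusted p = 4.0e-05 in edgeR's quasi-likelihood test). Each batch gave a lower value in LPS, from -0.29 to -0.24, and library size alone gave -0.67. The last 1261 bases of the Mmp12 span, with 157 exonic bases, are shared with Mmp1b, a gene related to interstitial collagenase on the opposite strand. Mmp1b had 0 counts in all PBS libraries and 6, 1 and 12 in LPS.

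Mmp8, the neutrophil collagenase gene, and Mmp27, a little-studied member of the stromelysin type, lie next to each other, with 2910 bases between them, at chr9:7558456-7568485 (ENSMUSG00000005800.3) and chr9:7571396-7581885 (ENSMUSG00000070323.11), both on the plus strand. Mmp8 had 774, 704 and 740 counts in PBS and 493, 438 and 501 in LPS, or 16.0 ± 0.343 and 14.3 ± 0.743 CPM. Its log2 fold change was -0.16 ± 0.06 (SE, adjusted p = 0.031 in edgeR's quasi-likelihood test). The groups did not overlap in CPM, but the adjusted p exceeded 0.05 without PBS replicate 1 (adjusted p = 0.075), PBS replicate 3 (0.067) or LPS replicate 2 (0.14), with DESeq2 (0.12) and with DESeq2's size factors (0.053). With upper quartile scaling the Mmp8 value was -0.30 (adjusted p = 3.1e-04) and with library size alone -0.56 (2.5e-07).

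For Mmp27 the counts were 1045, 924 and 893 in PBS and 598, 564 and 689 in LPS. The levels of 20.6 ± 1.30 and 18.4 ± 1.58 CPM overlapped, since LPS replicate 3 at 20.2 CPM lay above PBS replicate 3 at 19.4 CPM. The log2 fold change was -0.16 ± 0.07 (SE, adjusted p = 0.046 in edgeR's quasi-likelihood test). The adjusted p exceeded 0.05 without PBS replicate 1 (adjusted p = 0.19), PBS replicate 2 (0.065), LPS replicate 1 (0.15) or LPS replicate 2 (0.19), with DESeq2 (0.12) and with DESeq2's size factors (0.077). The other scalings gave Mmp27 values of -0.30 (upper quartile, adjusted p = 6.6e-04) and -0.56 (library size alone, 6.8e-07).

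Mmp9, the gelatinase B gene (ENSMUSG00000017737.2, chr2:164940780-164955850, plus strand), had 1107, 1119 and 1075 counts in PBS and 760, 695 and 727 in LPS. That was 23.8 ± 0.863 and 21.8 ± 0.762 CPM, with a log2 fold change of -0.13 ± 0.05 (SE, adjusted p = 0.042 in edgeR's quasi-likelihood test). The groups did not overlap, at 23.2 to 24.8 CPM in PBS and 21.3 to 22.6 CPM in LPS. Leaving out PBS replicate 2 (adjusted p = 0.16), LPS replicate 2 (0.12) or LPS replicate 3 (0.099), or using DESeq2 (0.16) or its size factors (0.078), took the adjusted p above 0.05. Mmp9 had -0.27 (adjusted p = 2.0e-04) with upper quartile scaling and -0.53 (6.6e-08) with library size alone.

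Mmp8 and Mmp9 are also known as neutrophil granule products. Among 10 neutrophil markers, 9 were tested and 0 passed both criteria; 4 were higher in LPS by the adjusted p alone, where 32.9% of all genes were, and the median log2 fold change was 0.30. Ly6g, a defining neutrophil surface marker, had 0, 0 and 1 counts in PBS and 0, 3 and 0 in LPS, and S100a9, a calcium-binding granulocyte protein gene, was the highest at 19.4 and 25.0 CPM. The summed level was 44.7 to 48.0 CPM in PBS and 58.4 to 63.0 CPM in LPS. With library size alone it was 51.4 to 55.4 and 50.9 to 54.4, overlapping between the groups, and 0 markers passed the adjusted p. The part of these cells in the levels of Mmp8 and Mmp9 was not tested.

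Mmp19 encodes an MMP of basement membrane and other matrix proteins. The gene (ENSMUSG00000025355.7, chr10:128790910-128800824, plus strand) had 1426, 1433 and 1542 counts in PBS and 1332, 1242 and 1391 in LPS. In normalized CPM this was 31.7 ± 1.74 and 39.5 ± 1.42, a log2 difference of 0.32 ± 0.05 (SE, adjusted p = 1.7e-05 in edgeR's quasi-likelihood test), with no overlap. Its direction depended on the scaling, since library size alone gave -0.085 (adjusted p = 0.13). Of its 3533 exonic bases, 789 are shared with Tmem198b on the opposite strand, which had 530 to 560 counts in PBS and 329 to 358 in LPS, and 212 with the antisense gene Gm47093, which had at most 1 count. The strand setting of the counting was not given in the sources used here, so reads of these genes cannot be assigned between them.

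Timp2, the inhibitor gene expressed constitutively in many tissues, lies at chr11:118301069-118355740 on the minus strand (ENSMUSG00000017466.9). Its counts were 10491, 10280 and 10333 in PBS and 8340, 8434 and 8187 in LPS, or 224 ± 3.61 and 249 ± 8.94 CPM. The groups did not overlap, and the log2 fold change was 0.15 ± 0.03 (SE, adjusted p = 6.8e-04 in edgeR's quasi-likelihood test). With library size alone the direction turned, to -0.25 (adjusted p = 2.5e-06), and with upper quartile scaling it was 0.01 (adjusted p = 0.79). Cep295nl, a gene inside the Timp2 span on the same strand with 0 exonic bases in common, had 174 to 205 counts in PBS and 32 to 54 in LPS.

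**Figure D2:**
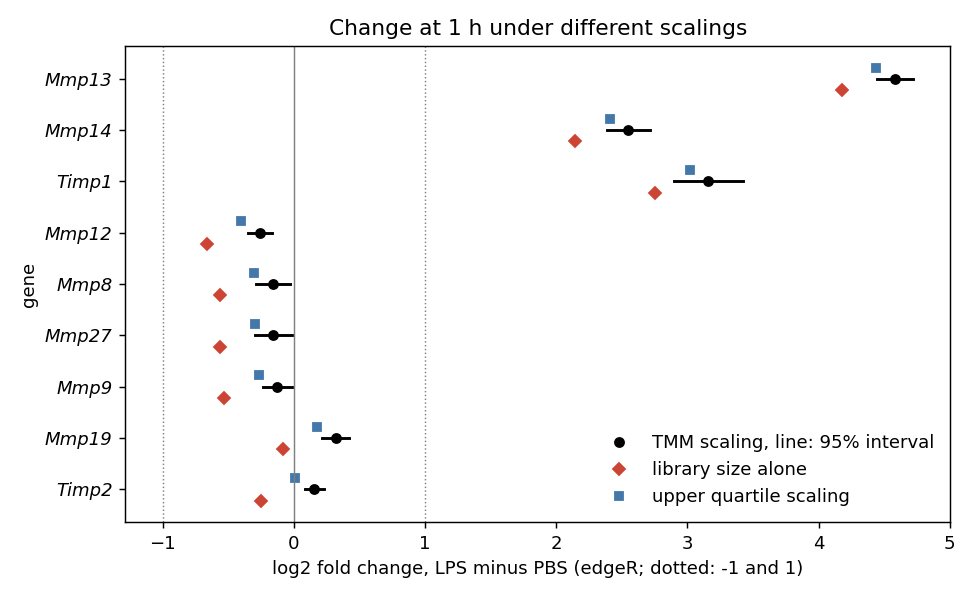
Log2 fold change of LPS against PBS for the 9 genes by TMM scaling (black, with 95% intervals), library size alone (red) and upper quartile scaling (blue), with dotted lines at -1 and 1. Mmp13, Mmp14 and Timp1 stay above 1 under all 3 scalings, and Mmp19 and Timp2 lie on the other side of 0 with library size alone.

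Levels were compared between genes per length, as TPM (counts divided by the union exon length and scaled to the same total in every library), which carries no TMM factor and is used here only for order and ratios within libraries. In PBS the order was Mmp12 (300.2 TPM), Timp2 (182), Mmp27 (29.5), Mmp19 (28.4), Mmp9 (21.2), Mmp8 (20.8), Mmp13 (6.50), Timp1 (4.34) and Mmp14 (2.27). Mmp27 and Mmp19 overlapped between libraries, as did Mmp9 and Mmp8, and these neighbours were not separated. In LPS the order was Mmp12 (183), Timp2 (147), Mmp13 (114), Timp1 (28.3), Mmp19 (25.8), Mmp27 (19.3), Mmp9 (14.2), Mmp8 (13.6) and Mmp14 (9.70). Here Timp1 and Mmp19 overlapped, as did Mmp9 and Mmp8. Mmp13 thus moved from place 7 to place 3 and Timp1 from place 8 to place 4, also when the length of the longest transcript was used. Mmp14 kept place 9 in both groups, although with the longest transcript it took place 7 in LPS.

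The makeup of the 9 genes' summed TPM differed between the groups. Mmp12 made up 52.1%, 48.6% and 50.6% of it in PBS and 33.6%, 32.0% and 33.1% in LPS, and Mmp13 1.02%, 1.03% and 1.23% in PBS and 20.0%, 19.7% and 21.7% in LPS. The Mmp12 share was lower in every LPS library and the Mmp13 share higher. Timp2 went from 30.6% ± 1.26 to 26.6% ± 1.39 and Timp1 from 0.730% ± 0.137 to 5.10% ± 0.507. Mmp14 held 0.383% ± 0.0401 and 1.75% ± 0.110. With the longest transcript, the Mmp12 share was 60.7% in PBS and 42.9% in LPS and the Mmp13 share 0.812% and 16.5%.

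Ratios within a library do not depend on the scaling, although they do on the length used. Timp2 exceeded Timp1 42.8 ± 7.55 times per length in PBS and 5.24 ± 0.378 times in LPS. Mmp12 exceeded Mmp13 46.5 ± 4.92 times in PBS and 1.61 ± 0.0760 times in LPS. The ratio of Timp2 to Mmp14, its partner in pro-Mmp2 activation, was 80.3 ± 6.49 in PBS and 15.2 ± 0.304 in LPS. For Mmp9 and Timp1, which bind each other, the ratio was 4.99 ± 0.777 in PBS and 0.504 ± 0.0422 in LPS. None of these 4 ratios overlapped between the groups. Each holds Mmp13, Mmp14 or Timp1, so this follows from their rise given above. The adjacent genes Mmp8 and Mmp27 kept a ratio of 0.708 ± 0.0418 in PBS and 0.707 ± 0.0443 in LPS.

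Summed MMP transcripts exceeded summed TIMP transcripts 2.33, 2.06 and 2.21 times in PBS and 2.17, 1.98 and 2.33 times in LPS, and the groups overlapped. Without Mmp12 the ratio was 0.593, 0.572 and 0.587 in PBS and 1.10, 1.02 and 1.23 in LPS, with no overlap. In this MMP sum, Mmp13, already found higher, held on average 6.50 of 109 TPM in PBS and 114 of 196 TPM in LPS. With the longest transcript, a length chosen after the data were seen, the ratio of all MMPs to TIMPs was 3.10 ± 0.203 and 2.76 ± 0.219, and the groups overlapped. These are transcript ratios and hold no measure of protein or of enzyme activity.

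**Figure D3:**
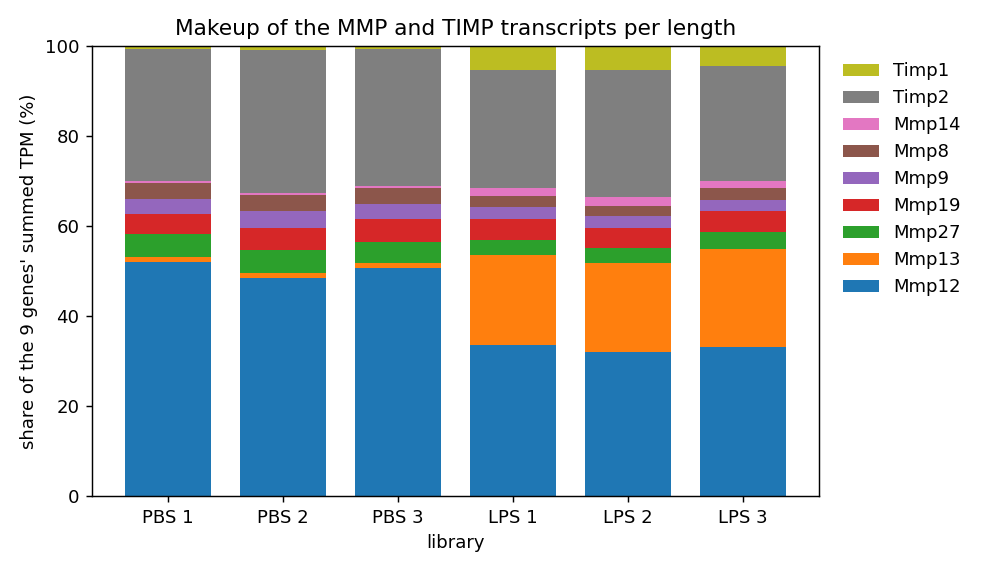
Share of each gene in the summed TPM of the 9 genes, 1 bar per library, MMPs stacked below the TIMPs. The mean Mmp13 share is 1.09% in PBS and 20.5% in LPS, and the mean Mmp12 share 50.4% and 32.9%.

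The chromosome 9 cluster ran over 427 kb from Mmp13 to Mmp7, at chr9:7272514-7699585, and held 10 MMP genes and 0 other protein-coding genes. In order they were Mmp13, Mmp12, Mmp1b, Mmp3, Mmp1a, Mmp10, Mmp8, Mmp27, Mmp20 and Mmp7. Mmp13, at the end of the cluster and 61049 bases from Mmp12, rose, and so did Mmp10, with 8, 8 and 13 counts in PBS and 42, 61 and 60 in LPS (log2 fold change 2.94 ± 0.28, SE, adjusted p = 3.7e-08 in edgeR's quasi-likelihood test). Mmp3 had 65, 39 and 51 counts in PBS and 43, 69 and 44 in LPS, overlapping groups with a log2 fold change of 0.48 ± 0.22 (SE, adjusted p = 0.066). Mmp12, Mmp8 and Mmp27, described above, had negative values. Mmp1a and Mmp7 had at most 2 counts in any library and Mmp20, the tooth enamel MMP gene, had 0 in all 6. Mmp1b, a close paralog of Mmp1a whose reads could be split between the copies, did not pass the filter on low counts. In a fit without that filter it had an adjusted p of 1.4e-05 by edgeR's quasi-likelihood test, and no fold is given against PBS libraries at 0. This value rests on 6, 1 and 12 counts in LPS. By the same test, that fit gave Timp1 an adjusted p of 4.8e-144 where the main fit gave 1.3e-13, so the 2 fits' p-values are not comparable.

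**Figure D4:**
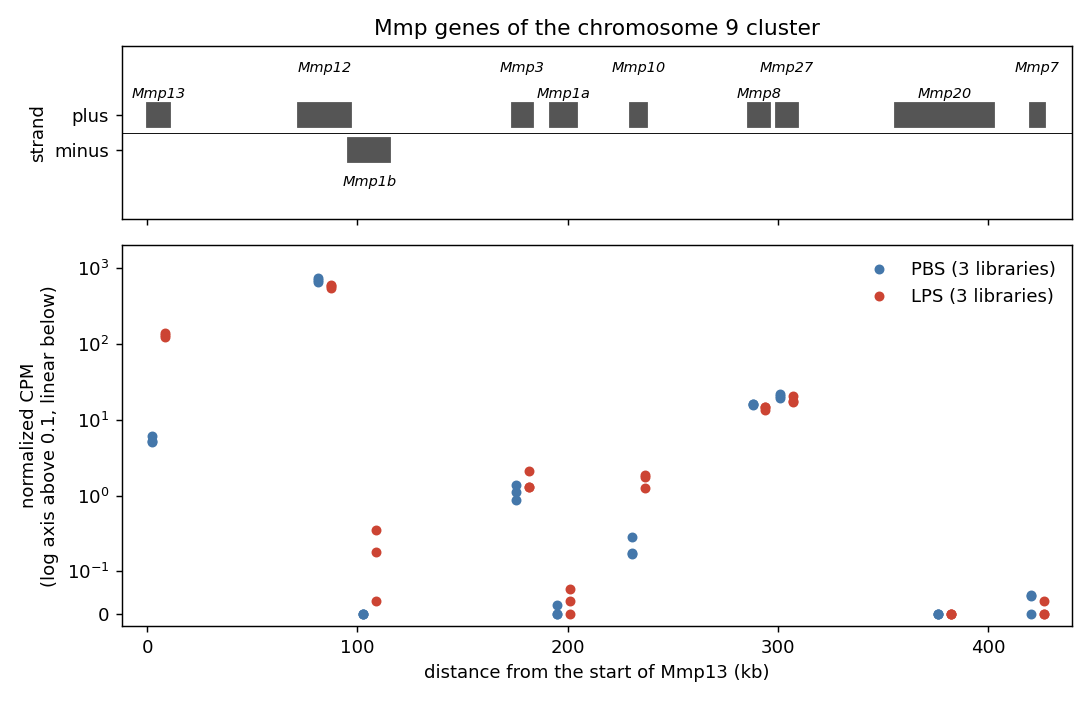
Top, the 10 MMP genes of the chromosome 9 cluster by distance from the start of Mmp13 (kb) and strand; bottom, normalized CPM of each in the 3 PBS (blue) and 3 LPS (red) libraries, on an axis that is logarithmic above 0.1 and linear below. Mmp13 and Mmp10 are higher in all LPS libraries, whereas Mmp12, Mmp8 and Mmp27 differ little.

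Of the 18 MMP and TIMP genes outside the 9 members, 7 had enough reads to be tested, and 7 were at the floor in every library. Mmp10 and Mmp25, a membrane-anchored MMP gene of leukocytes, rose past both criteria, and none fell (10.5% and 10.4% of all genes). Mmp25 went from 33, 45 and 31 counts to 158, 180 and 188 (log2 fold change 2.74 ± 0.16, SE, adjusted p = 2.7e-11 in edgeR's quasi-likelihood test). Timp3, the inhibitor bound to matrix, was higher by the adjusted p alone, with a log2 fold change of 0.90 (adjusted p = 4.8e-05 in edgeR's quasi-likelihood test). Its log2 differences within batches 1, 2 and 3 were 1.22, 1.07 and 0.38, so it lay near the fold criterion with a wide spread. Mmp2, the gelatinase A gene, had 11 to 23 counts in every library (log2 fold change 0.60 ± 0.32, SE, adjusted p = 0.10). The list's median was 0.60 over its 7 tested genes.

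Among 17 genes that activate, bind or clear MMPs, 12 were tested, 8 rose and 0 fell past both criteria, with a median log2 fold change of 1.73, against 10.5% higher and 10.4% lower over all genes. The plasminogen activator genes were among them. Plau, urokinase, had 4113 to 4553 counts in PBS and 14791 to 15841 in LPS (log2 fold change 2.31), and its receptor gene Plaur had a log2 fold change of 3.54. Plat, the tissue-type activator, had 2, 4 and 4 counts in PBS and 2027, 1981 and 1971 in LPS (log2 fold change 9.63, set by very few PBS counts). Serpinb2, an inhibitor of these activators, rose by 5.04 on the log2 scale. Furin, the convertase that cleaves pro-Mmp14, had a log2 fold change of 1.16, Cd44, a surface receptor that docks Mmp9 and Mmp14, of 2.57, and Lcn2, a lipocalin that binds Mmp9, of 1.04. Furin and Lcn2 came under the fold criterion with library size alone, at 0.75 and 0.63, and Lcn2 also with upper quartile scaling (0.90) and without LPS replicate 1 (0.96). Plg, which encodes plasminogen, the substrate of these activators, had 0 counts in all libraries. Lrp1, the endocytic receptor that clears MMPs and TIMPs, differed by 0.50 with TMM scaling. Library size alone moved the median of all genes from -0.01 to -0.42, so the size of the Lrp1 difference rests on the scaling. Reck, a membrane-bound MMP inhibitor, differed by -0.05 (adjusted p = 0.85 in edgeR's quasi-likelihood test).

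Of the 7 AP-1 genes, all of which were tested, 5 rose and 0 fell past both criteria, against 10.5% and 10.4% of all genes, with a median log2 fold change of 3.23. Fosb had 18 to 44 counts in PBS and 15376 to 16283 in LPS (log2 fold change 9.30). The changes were 5.01 for Fosl2, 3.996 for Junb, 3.23 for Fosl1 and 2.40 for Fos. By the adjusted p alone, 6 AP-1 genes were higher and 1 was lower. Of the genes that missed the fold criterion, Jund was higher, at 0.35, and Jun lower, at -0.18 (adjusted p = 1.7e-04 and 5.5e-04 in edgeR's quasi-likelihood test). With library size alone, 5 were higher and 1 was lower by the adjusted p. These are mRNA levels and no measure of AP-1 binding at the motifs printed above.

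The ADAMTS genes encode a related family of secreted metalloproteinases. Of 19 listed, 7 were tested, 3 rose and 0 fell past both criteria, against 10.5% and 10.4% of all genes, with a median of 0.41. Adamts4, an aggrecanase gene, went from 7, 5 and 7 counts to 112, 100 and 102 (log2 fold change 4.49). Adamts9 (1.34) and Adamts7 (1.08) rested on at most 25 counts per library. Adamts7 was not called with either library size alone (0.68) or upper quartile scaling (0.94), with DESeq2 (adjusted p = 0.056), or without PBS replicate 3 (0.093) or LPS replicate 2 (0.22), and Adamts9 not with library size alone (0.94). Adamts10, linked to fibrillin fibres, had the most counts of the tested genes and a log2 fold change of -0.58 (adjusted p = 3.2e-09 in edgeR's quasi-likelihood test).

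Timp1, Timp2 and Mmp14 are also expressed by fibroblasts, and Mmp9, Mmp13 and Mmp14 by cells of bone. Of 7 fibroblast markers, 5 were tested and 0 passed the adjusted p, against 32.9% of all genes higher and 34.9% lower. The fibroblast markers' summed level was 13.9 to 15.0 CPM in PBS and 15.4 to 18.0 CPM in LPS. None of the fibroblast markers was at the floor in every library, and Col1a2, a type I collagen gene, was the highest at 4.86 and 5.37 CPM. Of 7 osteoclast markers, 5 were tested and 2 rose past both criteria, where 10.5% of all genes did. These were Acp5 (log2 fold change 1.34) and Ocstamp (1.45, from 7 to 8 counts in PBS and 11 to 19 in LPS). Acp5 came to 0.93 with library size alone. By the adjusted p, 3 of the osteoclast markers were higher and 2 were lower. Dcstamp was higher by this criterion alone, at 0.32 (adjusted p = 2.5e-04 by edgeR). Ctsk, the cathepsin K gene, and Atp6v0d2, a proton pump subunit gene, were lower, at -0.13 (adjusted p = 0.046) and -0.10 (0.022) by edgeR. The list summed to 223 to 239 CPM in PBS and 228 to 234 CPM in LPS. With library size alone the sums were 257 to 274 in PBS and 197 to 203 in LPS for the osteoclast markers, and 16.0 to 17.2 and 13.4 to 15.5 for the fibroblast markers. Calcr, the calcitonin receptor gene that defines osteoclasts, had 0 counts in 5 libraries and 1 in LPS replicate 3, and Atp6v0d2 was the highest at 185 and 173 CPM. The part of these cell types in the rise of Timp1, Mmp13 and Mmp14 was not tested.

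Among all tested genes, those nearest to the 3 members that rose, by Euclidean distance of log2 CPM over the 6 libraries, were found for each. For Mmp13 it was Vcam1, the vascular cell adhesion molecule gene, at a distance of 0.737, with 259, 234 and 268 counts in PBS and 3288, 3204 and 3387 in LPS. For Timp1 it was Ddit4, a stress-induced inhibitor of mTORC1 signalling, at 0.374, with a log2 fold change of 3.21. For Mmp14 it was Tnfsf14, the TNF family ligand gene also called LIGHT, at 0.269, with 195, 185 and 191 counts in PBS and 947, 898 and 823 in LPS. The distances are a description over 6 libraries that share 1 treatment contrast.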

How the data were processed

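Total RNA of 3 PBS and 3 LPS libraries of BMDMs was sequenced from a stranded total RNA kit. The authors aligned paired-end reads to GRCm38 with HISAT2 2.1.0, processed alignments with SAMtools 1.17 and deposited whole-number counts per gene from featureCounts 2.0.0, without normalization. The annotation release, strand setting and treatment of multimapping reads were not given in the sources used here. Of 55335 identifiers, 55154 matched a GENCODE M21 symbol with versions ignored and 181 did not.

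From the deposited counts, LPS and PBS were compared in R 4.3.3 with edgeR 4.0.16 (filterByExpr, TMM, quasi-likelihood test, Benjamini-Hochberg adjustment over 15687 genes, no covariate). Calls needed an adjusted p below 0.05 together with a log2 fold change over 1 in either direction. Standard errors came from the quasi-likelihood F statistic. Floors of 3 counts cover counting error only. The functions were tested on simulated data.

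The replicate numbers are labelled as batches in both groups and so pair the libraries. After centring each group, libraries of the same number correlated at -0.0139, 0.0822 and 0.0387 across genes, against a mean of -0.0178 for other pairs. A replicate block was fitted as an alternative.

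Further alternatives were upper quartile scaling, DESeq2 size factors and the library size by itself, no filter beyond 1 count, 10 counts in every library, DESeq2 1.42.0, limma 3.58.1 voom, leaving out each library, the adjusted p alone, and the longest transcript in place of the union exon length. Upstream sequences were RefSeq promoters.

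The members and lists were chosen with earlier results of these data known. Lists covered the other MMP and TIMP genes, activation, binding and clearance genes, AP-1 genes, ADAMTS genes, and macrophage, neutrophil, fibroblast and osteoclast markers. Named genes were all members, genes of each related list past both criteria (at most the 8 with the largest change), for each marker list those at the floor and the highest, genes overlapping or neighbouring a member, and the nearest gene of the 3 members with the largest change. Mmp2, Timp3, Plg, Lrp1, Reck, Jun, Jund, Adamts10, Cd14, Fcgr1, Acp5, Ocstamp, Dcstamp and Ctsk were named outside this rule after their values were seen. Of the genes that the rule names, 1 is not reported here.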

Additional observations from a re-analysis of the deposited data

How the results depend on the processing

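Mmp13, Mmp14 and Timp1 passed both criteria and Mmp12 kept its direction and its adjusted p under 0.05 in all 14 alternative fits, with log2 fold changes of 4.18 to 4.67, 2.15 to 2.62, 2.75 to 3.28 and -0.67 to -0.22. Library size alone reversed Mmp19 to -0.085 and Timp2 to -0.25, and called 2964 genes lower over the whole table, against 1624 with TMM. Of 126 values over the 9 genes and 14 fits, 107 kept direction and side of the threshold, 17 lost the adjusted p and 2 reversed. With the replicate block, the paired fit, 3 members were called higher and 0 lower, Mmp13 had a log2 fold change of 4.58, and no call of a member changed. The adjusted p alone gave 5 members higher and 4 lower, 6 AP-1 genes higher and 1 lower, and 5 ADAMTS genes higher and 1 lower. A minimum of 10 counts in every library left 1 other MMP and TIMP gene higher, since Mmp10 was filtered out, and 0 ADAMTS genes higher, each of the 3 having fewer counts in some library, and called 1141 genes higher and 1027 lower over the whole table, where the default filter gave 1653 and 1624. Library size alone left 1 ADAMTS gene and 6 activation, binding and clearance genes higher. With the longest transcript, the Mmp12 share of the summed TPM in PBS was 60.7%. The cause of the shifts with scaling was not tested. The directions of Mmp19 and Timp2 rest on the scaling, and genes with fewer than 10 counts in a library, Mmp10 and Adamts9 among them, on few reads.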
